A study of Mus musculus with 20 samples.

Results

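T cells read IL-2, IL-7 and IL-15 through receptors that share the common gamma chain, and the RNA of 10 genes of that pathway was measured here in cultured mouse T cells. The 10 genes were listed by name and were found in the deposited table by matching its Ensembl gene identifiers to mouse symbols. They are Jak1 and Jak3 (kinases), Stat3, Stat5a and Stat5b (transcription factors), Socs1, Socs2, Socs3 and Cish (feedback inhibitors) and Pim1 (a target kinase), 10 of the 49671 genes in the table. Per the mm10 (GRCm38) coordinates of the table, Jak1 lies on chromosome 4 (101152367 to 101265282), Jak3 on chromosome 8 (71676296 to 71690575), Socs1 on chromosome 16 (10783808 to 10785536), Socs2 on chromosome 10 (95385362 to 95417180), Cish on chromosome 9 (107296026 to 107302784) and Pim1 on chromosome 17 (29490812 to 29496111). Chromosome 11 holds Stat5b (100780731 to 100850724), Stat5a (100859351 to 100885169) and Stat3 (100885098 to 100939540) side by side, and Socs3 (117966079 to 117970047) farther along. The Stat5a and Stat3 ends overlap, on opposite strands that were counted apart. All 10 passed the filter on low counts, which left 13290 genes for testing.

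There were 4 groups of 5 libraries: CD8 T cells at week 4, CD8 T cells at week 1, CD4 T cells at week 3 and CD4 T cells at week 1. The cells came from mouse spleen and inguinal lymph nodes. They were either polyclonal cells of albino B6 mice, activated for 72 h, or transgenic cells of Marilyn-BLITC and MataHari-BLITC mice, activated for 24 h, on plates coated with anti-CD3 and anti-CD28 in 1 ng/mL human IL-2. All groups were then expanded in 10 ng/mL human IL-7 with 50 ng/mL human IL-15, for 25 days (CD8 week 4), 18 days (CD4 week 3) or 4 days (both week 1 groups), and CD44+CD62L+ cells were sorted. The labels give no age, and do not say which libraries hold polyclonal and which hold transgenic cells, nor whether libraries grouped together are separate animals or separate cultures. The p-values therefore describe the spread among these samples alone, and part of it may be technical. No group was kept without IL-7 and IL-15, so every comparison is between stages of culture or between cell types in the same cytokines.

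When a common gamma chain cytokine binds, JAK1 sits on the cytokine-specific receptor chain and JAK3 on the common gamma chain, and the kinases phosphorylate each other and the receptor. STAT5A and STAT5B, the main STATs of these receptors in T cells, and STAT3, which answers mainly to IL-6, IL-10 and IL-21, then enter the nucleus. The genes they switch on include CIS (Cish) and the SOCS proteins, which dampen the receptor in return, and PIM1, a kinase that promotes growth and survival. IL-7 and IL-15 signals of this kind keep memory T cells alive.

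Levels are given as CPM, counts scaled to the same TMM-adjusted library size, with a value for each library in the order of replicates 1 to 5. These numbers name the libraries in the order listed, and libraries with the same number are not known to be paired. Differences are log2 fold changes with their standard error (SE) and p-values from edgeR's quasi-likelihood test, adjusted by the Benjamini-Hochberg method over the 13290 genes, and a gene was called at an adjusted p under 0.05. Library depths ran from 13.3 to 28.3 M counts, and averaged 22.85 ± 4.03 M for CD8 week 4, 18.7 ± 5.58 M for CD8 week 1, 23.04 ± 0.657 M for CD4 week 3 and 22.63 ± 1.91 M for CD4 week 1 (SD, n = 5 per group). The sorted lineages matched their markers: Cd8a was 645 to 1578 CPM in CD8 week 4 and 0.273 to 17.5 CPM in CD4 week 3, and Cd4 was listed at 0 in all 5 CD8 week 4 libraries and at 520.2 to 880.1 CPM in CD4 week 3. The 5 listed B cell markers summed to at most 12.9 CPM and the 6 myeloid markers to at most 23.99 CPM in any library. The summed B cell markers spanned 1.07 to 8.96 CPM at CD8 week 4, 9.36 to 12.9 CPM at CD8 week 1, 0.182 to 1.28 CPM at CD4 week 3 and 0.686 to 1.41 CPM at CD4 week 1, with Ms4a1 and Pax5 at 0 in CD8 week 4. Summed myeloid markers spanned 4.66 to 23.99 CPM at CD8 week 4, 9.03 to 22.7 CPM at CD8 week 1, 1.69 to 3.71 CPM at CD4 week 3 and 1.49 to 2.92 CPM at CD4 week 1, with Lyz2 at 0 in all 4 groups. The 5 natural killer markers, some of which CD8 T cells also express, summed to 202 to 416 CPM in CD8 week 4, 228 to 378 CPM in CD8 week 1, 1.31 to 12.6 CPM in CD4 week 3 and 0.458 to 28.9 CPM in CD4 week 1. The part of any other cell type in the results was not tested.

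The CD8 libraries carry title numbers in separate ranges, and each range holds both stages: replicates 1, 2 and 3 of CD8 week 4 and of CD8 week 1 are in the lower range, and replicates 4 and 5 of each are in the upper range. All CD4 titles lie in a range of their own, so in any comparison of CD8 with CD4 libraries cell type and title range cannot be told apart. Within each cell type the titles, in rising order, alternate between week 1 and the long-term stage. Libraries with the same replicate number are thus neighbours by title, and the labels do not say whether such neighbours share a culture. CD8 week 4 replicates 1 and 2 stood together against replicates 3, 4 and 5 in 8 of the 10 genes, being both above them or both below them. The same held for 53.5% of all genes tested. CD8 week 1 replicate 3, CD4 week 3 replicate 2 and CD4 week 1 replicate 2 were the farthest from the other libraries of their groups, at root mean square differences of 0.732, 0.793 and 0.693 on the log2 scale, where the other libraries of those 3 groups ran from 0.313 to 0.507. In CD8 week 4 these differences were 0.497, 0.633, 0.543, 0.389 and 0.505 for replicates 1 to 5. By this measure replicate 2 was the farthest there, and replicate 1 was nearer than replicates 3 and 5.

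**Figure D1:**
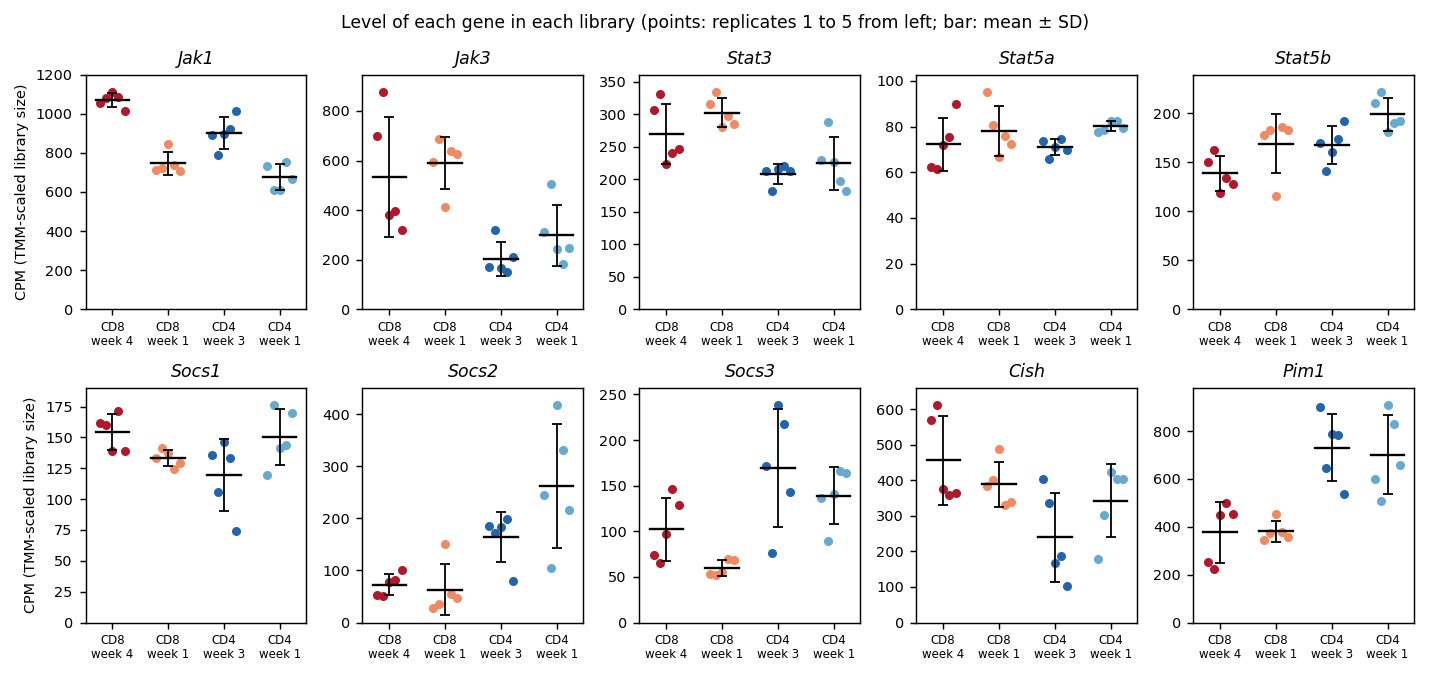
CPM of each of the 10 genes in each library, in 1 panel per gene with an axis that starts at 0; points are replicates 1 to 5 from left to right, the long bar is the mean and the error bar the SD (n = 5). Jak1 has all 5 CD8 week 4 libraries above all 5 CD8 week 1 libraries, while Jak3, Cish and Pim1 in CD8 week 4 split into replicates 1 and 2 and replicates 3 to 5.

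2 of the genes have a STAT-type motif in the promoter window, and both encode feedback inhibitors that STATs are known to switch on, so their windows are printed. Each window runs from 250 bases before to 50 bases after a RefSeq transcription start, on GRCm38.p6, and 9 of the 10 genes (all but Socs2) matched the RefSeq promoter table, in 12 entries. The motif searched was TTCNNNGAA, which reads the same on both strands, and its matches stand in capitals. At least 1 match was present in 8.3% of the 32851 promoters of the same length and at least 2 matches in 0.457%. The Cish window (chr9:107296409-107296708, plus strand) held 2 matches, whose first bases lie 0 and 11 bases past the start, and the Socs3 window (chr11:117969317-117969616, minus strand) held 1, whose first base lies 154 bases before the start. The other 10 entries held no match in these letters. A match describes the sequence and is no measure of binding.
Cish: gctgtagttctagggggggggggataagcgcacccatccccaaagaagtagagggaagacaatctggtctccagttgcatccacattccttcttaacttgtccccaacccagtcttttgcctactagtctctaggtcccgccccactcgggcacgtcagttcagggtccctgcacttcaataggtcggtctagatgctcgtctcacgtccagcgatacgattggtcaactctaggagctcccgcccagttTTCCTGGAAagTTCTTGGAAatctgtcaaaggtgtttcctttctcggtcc
Socs3: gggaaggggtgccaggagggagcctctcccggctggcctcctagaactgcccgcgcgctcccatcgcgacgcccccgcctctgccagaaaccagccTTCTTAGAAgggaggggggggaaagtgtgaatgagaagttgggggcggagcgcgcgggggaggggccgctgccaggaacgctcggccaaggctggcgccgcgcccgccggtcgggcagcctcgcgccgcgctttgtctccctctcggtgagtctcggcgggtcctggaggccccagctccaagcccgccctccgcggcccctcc

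The first question was how the pathway's RNA changed with time in IL-7 and IL-15. In CD8 cells 2 of the 10 genes were called and both were higher at week 4: Jak1, the receptor-bound kinase, and Socs3, a feedback inhibitor. In CD4 cells Jak1 alone was called, and it was higher at week 3. None of the STAT genes, Cish, Socs1, Socs2, Jak3 or Pim1 passed the test in either cell type. Of all genes tested 33.5% were called for CD8 (17.1% higher, 16.4% lower) and 16.5% for CD4 (7.67% higher, 8.8% lower). The 2 and 1 of 10 lie below these background shares, but 10 genes are too few to tell such counts from them. The median log2 fold change of the 10 genes was 0.09 for CD8, where that of all genes tested was 0.03, and -0.21 for CD4, where that of all genes tested was 0.01. In bulk RNA, a change in the share of cells that express a gene and a change in RNA per cell cannot be told apart.

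**Figure D2:**
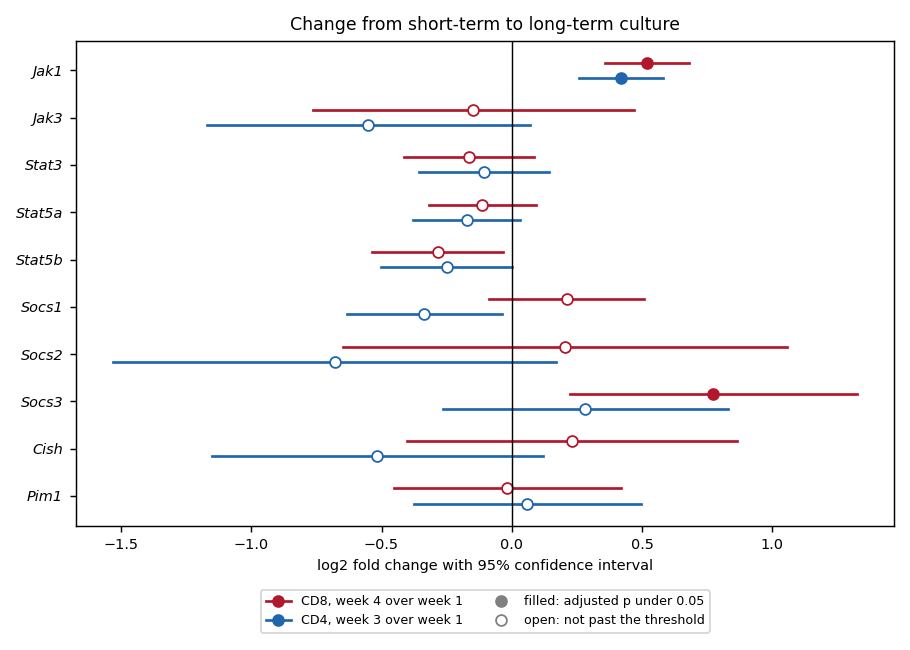
Log2 fold change of each gene with its 95% confidence interval, CD8 week 4 over week 1 in red above and CD4 week 3 over week 1 in blue below; filled points passed an adjusted p under 0.05. Jak1 lies right of 0 in both cell types, at 0.52 and 0.42, and most other intervals cross 0.

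Jak1, the kinase paired with the ligand-binding receptor chains, had 1054, 1082, 1112, 1087.1 and 1016 CPM in CD8 week 4, against 713, 725, 847, 735 and 709 CPM in CD8 week 1. In CD4 cells it had 890.3, 788, 896, 920.4 and 1015 CPM at week 3, against 733, 612, 609.6, 753 and 664 CPM at week 1. Every long-term library lay above every week 1 library of its cell type, with CD8 week 1 replicate 3 the highest of the CD8 week 1 libraries. The means were 1070.2 ± 36.5 CPM in CD8 week 4 and 746 ± 57.5 CPM in CD8 week 1, and 902 ± 81.3 CPM in CD4 week 3 and 674 ± 66.6 CPM in CD4 week 1 (SD, n = 5 each). The log2 fold change was 0.52 for CD8 (SE 0.0771, adjusted p = 0.000153), a 1.43-fold higher level, and 0.42 for CD4 (SE 0.077, adjusted p = 0.00258), a 1.34-fold higher level. Within the lower title range the CD8 change was 0.49 (adjusted p = 0.0536) and within the upper range 0.52 (adjusted p = 0.00137). Among the 10 genes, libraries without overlap were found for Jak1 alone in CD8 cells, and for Jak1 and Stat5a in CD4 cells, where the background was 20.8% (11% higher, 9.78% lower) and 8.15% (4.27% higher, 3.88% lower) of all genes tested.

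Jak3, the kinase bound to the common gamma chain, differed widely between libraries of the same group. It had 700.4, 877, 378, 395 and 320.4 CPM in CD8 week 4, against 594, 686, 413, 637 and 627 CPM in CD8 week 1, and 169.6, 321, 166, 150.4 and 211 CPM in CD4 week 3, against 310.4, 505, 243, 183 and 249 CPM in CD4 week 1. CD8 week 4 replicates 1 and 2 were above every CD8 week 1 library, and CD8 week 4 replicates 3, 4 and 5 were below every CD8 week 1 library. In CD4 cells replicate 2 was the highest library of each stage. Each CD4 week 3 library lay below the CD4 week 1 library of the same number, its neighbour by title, and a paired test was not run. The change was -0.15 for CD8 (95% interval -0.76 to 0.47, adjusted p = 0.73) and -0.55 for CD4 (-1.17 to 0.07, adjusted p = 0.202), neither past the threshold. Within the title ranges the CD8 change was 0.19 (lower range, adjusted p = 0.755) and -0.84 (upper range, adjusted p = 0.0016), so the direction differed between the ranges. With CD8 week 4 replicates 1 and 2 left out it was -0.70 (adjusted p = 0.076).

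The signal transducers, the STAT genes, did not pass the test in either cell type. Stat5a had 62.4, 61.5, 71.9, 75.3 and 89.8 CPM in CD8 week 4, against 95.2, 80.8, 66.5, 75.8 and 72.3 CPM in CD8 week 1, and 73.7, 65.8, 71.1, 74.5 and 69.8 CPM in CD4 week 3, against 77.7, 78.5, 82.4, 82.5 and 79.3 CPM in CD4 week 1. The CD8 groups overlapped, while every CD4 week 3 library lay below every CD4 week 1 library. The change was -0.11 for CD8 (adjusted p = 0.392) and -0.17 for CD4 (95% interval -0.38 to 0.03, adjusted p = 0.226), so the lower CD4 level did not pass the test although the libraries did not overlap. Within the title ranges the CD8 value was -0.32 (lower) and 0.14 (upper).

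Stat5b, the paralogue of Stat5a beside it on chromosome 11, had 150.2, 163, 119, 133 and 128 CPM in CD8 week 4, against 178, 182, 115, 185 and 183 CPM in CD8 week 1. In CD4 cells it had 169, 140.4, 161, 174 and 192 CPM at week 3, against 210.3, 222, 181, 189 and 192 CPM at week 1. CD8 week 1 replicate 3 lay below all 5 CD8 week 4 libraries and the other 4 CD8 week 1 libraries lay above them. The change was -0.28 for CD8 (95% interval -0.54 to -0.03, adjusted p = 0.0751) and -0.25 for CD4 (-0.50 to 0.00, adjusted p = 0.157). The CD8 value passed the threshold without CD8 week 1 replicate 3, at -0.39 (adjusted p = 0.00367), and without CD8 week 4 replicate 2, at -0.35 (adjusted p = 0.0419), and it was -0.16 and -0.52 within the lower and the upper title range. Stat5a and Stat5b are alike in sequence, and reads that map to several places were not counted. How many reads either gene lost in this way was not measured, so the level of each may be understated.

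Stat3 had 306, 332, 223, 241 and 246 CPM in CD8 week 4, against 316, 334, 281, 297 and 284 CPM in CD8 week 1, and 212, 181, 216, 220.5 and 212 CPM in CD4 week 3, against 229, 289, 226, 197 and 182 CPM in CD4 week 1. CD8 week 4 replicates 1 and 2 reached the CD8 week 1 levels, while replicates 3, 4 and 5 were below every CD8 week 1 library; the CD4 groups overlapped. The change was -0.17 for CD8 (95% interval -0.41 to 0.08, adjusted p = 0.301) and -0.11 for CD4 (-0.36 to 0.14, adjusted p = 0.557). Leaving out CD8 week 4 replicates 1 and 2 gave a CD8 value of -0.35 (adjusted p = 0.0345), and it was -0.13 and -0.27 within the lower and the upper title range.

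Of the feedback inhibitors, Socs3 was the one called. SOCS3 blocks cytokine receptors that carry gp130 and others by binding the receptor and its JAK. It had 74.2, 65.4, 97.5, 146 and 129 CPM in CD8 week 4, against 53.1, 52.3, 55.7, 69.6 and 68.7 CPM in CD8 week 1, and 171, 75.7, 238, 218 and 143 CPM in CD4 week 3, against 137, 88.9, 140.4, 166 and 164 CPM in CD4 week 1. CD8 week 4 replicate 2, the lowest of its group, lay inside the CD8 week 1 range, and the CD4 groups overlapped, with replicate 2 the lowest in each. The means were 102 ± 34.5 CPM in CD8 week 4 and 59.9 ± 8.55 CPM in CD8 week 1 (SD, n = 5 each), a log2 fold change of 0.77 (SE 0.264, adjusted p = 0.0305). It missed the threshold without CD8 week 1 replicate 1 (0.73, adjusted p = 0.0664), CD8 week 1 replicate 2 (0.73, adjusted p = 0.0665), CD8 week 4 replicate 4 (0.61, adjusted p = 0.0949) or CD8 week 4 replicate 5 (0.68, adjusted p = 0.0754). It was 0.54 (adjusted p = 0.115) within the lower title range, 0.97 (adjusted p = 0.000378) within the upper and 0.72 (adjusted p = 0.055) with limma-voom. For CD4 the change was 0.28 (95% interval -0.26 to 0.83, adjusted p = 0.474).

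Socs1, an inhibitor that binds JAK kinases, had 161, 160.4, 139, 172 and 139 CPM in CD8 week 4, against 134, 142, 138, 124 and 129 CPM in CD8 week 1. In CD4 cells it had 136, 106, 147, 133 and 74.3 CPM at week 3, against 119.6, 176, 142, 144 and 170.1 CPM at week 1, with CD4 week 3 replicate 5 the lowest of all 20 libraries. The groups overlapped in both cell types. The change was 0.21 for CD8 (95% interval -0.09 to 0.51, adjusted p = 0.266) and -0.34 for CD4 (-0.63 to -0.04, adjusted p = 0.108), and the CD8 value was 0.14 and 0.27 within the lower and the upper title range.

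Socs2, an inhibitor known from growth hormone receptor signalling in mice, varied widely within groups. It had 53.1, 51.1, 78.1, 81.6 and 100.2 CPM in CD8 week 4, against 28.7, 35.2, 150.2, 55.4 and 46.8 CPM in CD8 week 1, and 186, 173, 183, 198 and 79.2 CPM in CD4 week 3, against 244, 104, 418, 331 and 215 CPM in CD4 week 1. CD8 week 1 replicate 3 was above all CD8 libraries, and CD4 week 3 replicate 5 was below all other CD4 libraries. The change was 0.20 for CD8 (95% interval -0.65 to 1.06, adjusted p = 0.73) and -0.68 for CD4 (-1.53 to 0.17, adjusted p = 0.253). The CD8 value was 0.81 (adjusted p = 0.0674) without CD8 week 1 replicate 3. Within the title ranges it was -0.24 (lower, adjusted p = 0.845) and 0.81 (upper, adjusted p = 0.00387), so its direction was not the same in both.

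Cish, which encodes the STAT5-induced inhibitor CIS and whose promoter window is printed above, had 571, 611, 375, 358 and 364 CPM in CD8 week 4, against 383, 402, 487, 331 and 340.1 CPM in CD8 week 1. In CD4 cells it had 405, 337, 167, 186 and 102 CPM at week 3, against 178, 303, 424, 403 and 402 CPM at week 1. CD8 week 4 replicates 1 and 2 were above all other libraries of the study, CD8 week 4 replicates 3, 4 and 5 lay inside the CD8 week 1 range, and the CD4 libraries of each stage covered much of the same range. The change was 0.23 for CD8 (95% interval -0.40 to 0.86, adjusted p = 0.588) and -0.52 for CD4 (-1.15 to 0.12, adjusted p = 0.245). Without CD8 week 4 replicates 1 and 2 the CD8 value was -0.09, and it was 0.28 and 0.09 within the lower and the upper title range.

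Pim1, a serine/threonine kinase induced by STAT5, had 255, 223, 451, 498 and 455 CPM in CD8 week 4, against 344, 374, 452, 377 and 356 CPM in CD8 week 1, and 900.3, 645, 786, 782 and 538 CPM in CD4 week 3, against 599.7, 508, 908, 831 and 658 CPM in CD4 week 1. CD8 week 4 replicates 1 and 2 were below every other library of the study, the remaining CD8 week 4 libraries lay close to or above the highest CD8 week 1 library, and the CD4 groups overlapped. The change was -0.02 for CD8 (95% interval -0.45 to 0.42, adjusted p = 0.96) and 0.06 for CD4 (-0.38 to 0.50, adjusted p = 0.868). Within the title ranges the CD8 value was -0.35 (lower, adjusted p = 0.479) and 0.36 (upper, adjusted p = 0.00806), which are opposite directions.

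**Figure D3:**
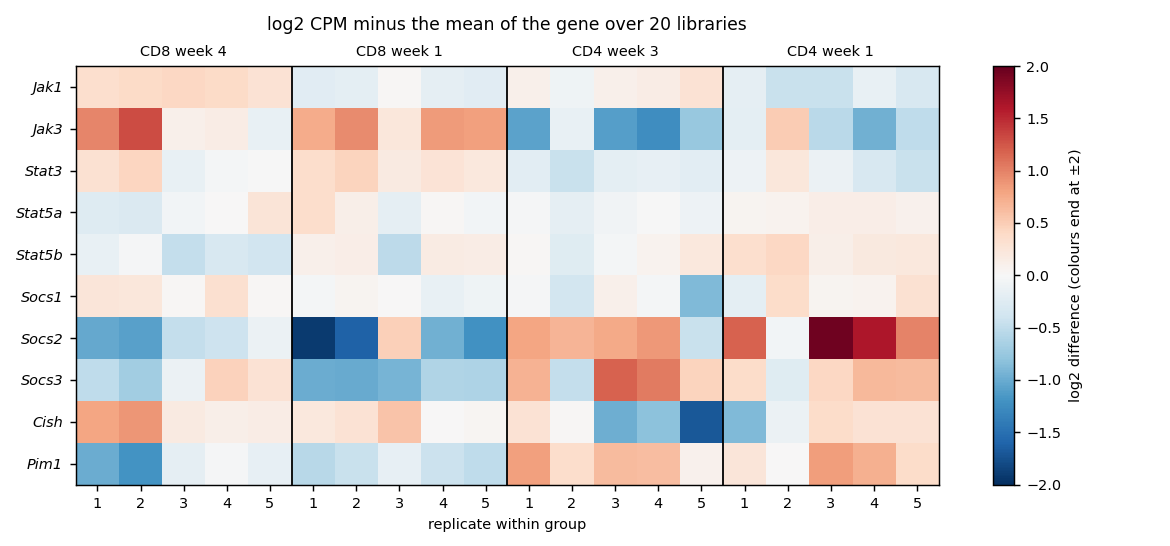
Log2 CPM of each gene minus its mean over all 20 libraries, in rows of genes and columns of libraries by group and replicate, with colours ending at ±2. Socs2, Socs3 and Pim1 are low and Jak3 is high across most CD8 libraries, and within CD8 week 4 the columns of replicates 1 and 2 differ from those of replicates 3 to 5 for 8 of the 10 genes.

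Leaving out the 5 libraries that sat apart (CD8 week 4 replicates 1 and 2, CD8 week 1 replicate 3, CD4 week 3 replicate 2 and CD4 week 1 replicate 2), an alternative chosen after the data were seen, narrows the spread by construction. CD8 week 4 replicate 1 is among them as part of the pair that stood together, and not by its root mean square difference. With the other 15 libraries 6 of the 10 genes were called for CD8: Jak1 (0.57), Socs2 (1.06) and Socs3 (1.03) higher, and Jak3 (-0.80), Stat3 (-0.38) and Stat5b (-0.52) lower. For CD4, 3 were called: Jak1 (0.42) higher, and Jak3 (-0.51) and Socs2 (-0.92) lower. Among all genes the same fit called 6317 for CD8 and 4573 for CD4, against 4454 and 2189 with all libraries. The larger counts of the 10 genes thus came with more calls among all genes. The Jak1 change was the one called in both cell types with and without those libraries.

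The change with culture was then compared between the cell types. None of the 10 genes passed the test of this difference in edgeR, DESeq2 or limma-voom, where 0.655% of all genes were called in edgeR (0.248% higher, 0.406% lower). At an unadjusted p under 0.05 there was 1 of the 10, where 11.8% of all genes had such a p. That gene was Socs1, with a difference of 0.55 (95% interval 0.13 to 0.97, adjusted p = 0.259), its mean being higher at week 4 than at week 1 in CD8 cells and lower at week 3 than at week 1 in CD4 cells. The Jak1 difference was 0.10 (95% interval -0.13 to 0.33, adjusted p = 0.793). Cish and Socs2 had wide intervals, at 0.75 (-0.15 to 1.64) and 0.88 (-0.32 to 2.09), so a difference was not detectable at this spread. The Socs2 difference was 1.49 (adjusted p = 0.105) without CD8 week 1 replicate 3. Socs3, called in CD8 cells and not in CD4 cells, differed by 0.49 (-0.28 to 1.27, adjusted p = 0.671), so its change was not shown to differ between them. The other values were 0.40 for Jak3, -0.06 for Stat3, 0.06 for Stat5a, -0.04 for Stat5b and -0.08 for Pim1. Without the 5 libraries that sat apart 3 genes were called, Stat3 (-0.41), Stat5b (-0.36) and Socs2 (1.98). This fit, chosen after the data were seen, called 1141 of all genes, against 87 with all libraries, so the 0.655% is not its background.

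The larger differences were between the cell types. CD8 cells at week 1 held more RNA than CD4 cells at week 1 of Jak3 and Stat3, and less of Socs2, Socs3 and Pim1, 5 of the 10 genes, where the background was 38.1% of all genes tested (19.1% higher, 19% lower). In the long-term cultures 7 of the 10 were called, where the background was 32.7% (17.7% higher, 15% lower): Jak1, Jak3, Stat3 and Cish were higher in CD8 week 4 than in CD4 week 3, and Socs2, Socs3 and Pim1 were lower. The CD8 and CD4 libraries of a stage also differed in title range, and week 4 was set against week 3, so cell type, title range and, in the long-term groups, weeks of culture cannot be told apart. The median log2 fold change of the 10 genes was -0.10 at week 1 and 0.14 in the long-term cultures, where that of all genes tested was -0.01 and 0.01.

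**Figure D4:**
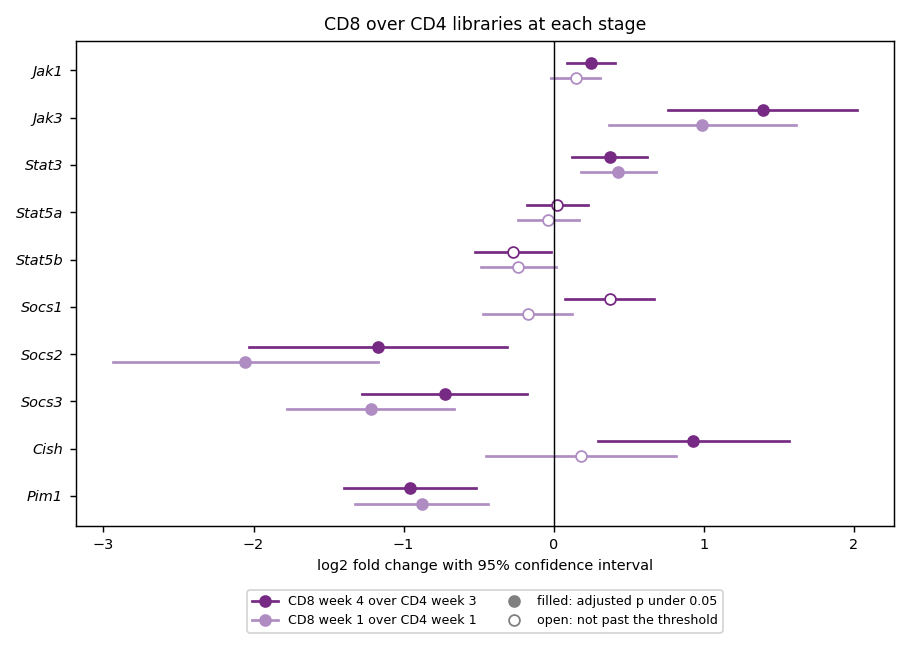
Log2 fold change of each gene, CD8 over CD4, with its 95% confidence interval; dark points compare CD8 week 4 with CD4 week 3 and light points CD8 week 1 with CD4 week 1, and filled points passed an adjusted p under 0.05. Jak3 and Stat3 lie to the right of 0 and Socs2, Socs3 and Pim1 to the left at both stages.

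Jak3 stood 1.39 higher on the log2 scale in CD8 week 4 than in CD4 week 3 (SE 0.3, adjusted p = 0.00165), and 0.99 higher in CD8 week 1 than in CD4 week 1 (SE 0.298, adjusted p = 0.0137). Its means were 534 ± 242 CPM in CD8 week 4 and 204 ± 69.4 CPM in CD4 week 3, and 592 ± 105 CPM in CD8 week 1 and 298 ± 124 CPM in CD4 week 1 (SD, n = 5 each). The groups touched at both stages, through CD4 week 3 replicate 2 and CD4 week 1 replicate 2. The long-term value was 0.84 without CD8 week 4 replicates 1 and 2 (adjusted p = 0.0417), a call kept at a smaller size.

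Pim1 was lower in CD8 cells without overlap at both stages. It averaged 376 ± 127 CPM in CD8 week 4 and 731 ± 140.4 CPM in CD4 week 3, and 381 ± 42.3 CPM in CD8 week 1 and 701 ± 165 CPM in CD4 week 1 (SD, n = 5 each). The log2 fold changes were -0.96 (SE 0.21, adjusted p = 0.0019) and -0.88 (SE 0.21, adjusted p = 0.00303), and the long-term value was -0.64 (adjusted p = 0.0178) without CD8 week 4 replicates 1 and 2. Libraries did not overlap for Jak1, Stat3 and Pim1 in the long-term cultures and for Socs3 and Pim1 at week 1, where 20.6% (11.3% higher, 9.3% lower) and 23.7% (12.4% higher, 11.3% lower) of all genes tested had none.

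Socs2 and Socs3 were the inhibitors that were lower in CD8 cells. Socs2 averaged 72.8 ± 20.7 CPM in CD8 week 4 and 164 ± 48.2 CPM in CD4 week 3, a log2 fold change of -1.17 (SE 0.411, adjusted p = 0.0351). At week 1 it averaged 63.3 ± 49.7 CPM in CD8 and 263 ± 119 CPM in CD4, a log2 fold change of -2.05 (SE 0.421, adjusted p = 0.000962), the largest in size of any of the 10 genes in the 5 comparisons, and -2.66 (adjusted p = 2.75e-05) without CD8 week 1 replicate 3. Socs3 was lower by a log2 fold change of -0.73 in CD8 week 4 against CD4 week 3 (adjusted p = 0.0404) and -1.22 in CD8 week 1 against CD4 week 1 (adjusted p = 0.00157). All week 1 calls of the 10 genes kept their side of the threshold when each library was left out in turn. In the long-term cultures the calls of Jak1, Jak3 and Pim1 did so too, and those of Socs2, Socs3, Cish and Stat3 did not. Socs2 lost its call without CD8 week 4 replicate 1, 2, 3 or 4 or CD4 week 3 replicate 1, 3 or 4. Its values were then -1.07 to -1.21 (adjusted p = 0.0501 to 0.0856). Socs3 lost its call without CD8 week 4 replicate 1, 2 or 3 or CD4 week 3 replicate 1, 3 or 4. Its values were then -0.57 to -0.72 (adjusted p = 0.0661 to 0.125).

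Cish, Stat3 and Jak1 were higher in CD8 week 4 than in CD4 week 3. Cish averaged 455.9 ± 124 CPM in CD8 week 4 and 239 ± 126 CPM in CD4 week 3 (SD, n = 5 each), a log2 fold change of 0.93 (adjusted p = 0.025). It lost its call without CD8 week 4 replicate 1 or 2, or CD4 week 3 replicate 3, 4 or 5 (0.74 to 0.85, adjusted p = 0.056 to 0.0706). Stat3 differed by 0.37 (adjusted p = 0.0223), which fell short when CD8 week 4 replicate 1 was left out (0.32, adjusted p = 0.0663) and when replicate 2 was (0.29, adjusted p = 0.0775), and Jak1 by 0.25 (adjusted p = 0.0192). Without CD8 week 4 replicates 1 and 2 together, 3 of the 10 genes were called in this comparison: Jak3, Pim1 and Stat5b (-0.40, adjusted p = 0.047). The same fit called 2585 of all genes, against 4342 with all libraries, so calls fell among all genes as well. At week 1 Stat3 differed by 0.43 (adjusted p = 0.00829), while Cish (0.18, 95% interval -0.45 to 0.82) and Jak1 (0.15, -0.02 to 0.31) did not pass the test.

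Stat5a, Stat5b and Socs1 were not called between the cell types at either stage. Stat5a differed by 0.02 in CD8 week 4 against CD4 week 3 (95% interval -0.18 to 0.23) and -0.04 in CD8 week 1 against CD4 week 1 (-0.24 to 0.17). Stat5b differed by -0.27 (-0.52 to -0.02, adjusted p = 0.0906) and -0.24 (-0.49 to 0.02, adjusted p = 0.127) in the same comparisons. Socs1 lay at the threshold in the long-term cultures, at 0.37 (adjusted p = 0.0509 in edgeR with TMM scaling and 0.0394 in DESeq2), and at -0.17 at week 1 (adjusted p = 0.349).

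Levels of different genes were compared per length, as TPM, in which counts are divided by exon length and scaled to the same total in each library. In CD8 week 4 the order by mean TPM was Jak1 (453 ± 15.2), Pim1 (437 ± 148), Socs1 (388 ± 42.1), Jak3, Cish, Socs3, Stat3, Stat5b, Stat5a (31.0 ± 4.91) and Socs2 (23.4 ± 6.6 TPM; SD, n = 5). Of the neighbours in that order, only Cish from Socs3 and Stat5b from Stat5a had libraries that did not overlap. In CD8 week 1 the order was Pim1 (455 ± 50.0 TPM), Jak3, Socs1, Jak1, Cish, Stat3, Stat5b, Socs3, Stat5a and Socs2. Pim1 was apart from Jak3 (349 ± 60.9 TPM), which overlapped Socs1; Jak1 was apart from Cish, Cish from Stat3 and Socs3 from Stat5a. In CD4 week 3 the order was Pim1, Jak1, Socs1, Socs3, Jak3, Cish, Stat5b, Stat3, Socs2 and Stat5a. Pim1 (852 ± 155 TPM) was apart there from Jak1 (385 ± 34.4 TPM) and Stat5b from Stat3, and the other neighbours overlapped. In CD4 week 1 the order was Pim1, Socs1, Jak1, Jak3, Cish, Socs3, Stat5b, Socs2, Stat3 and Stat5a. Pim1 (861 ± 218 TPM) was apart there from Socs1 (397 ± 60.9 TPM) and Stat3 from Stat5a (36.2 ± 2.09 TPM).

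**Figure D5:**
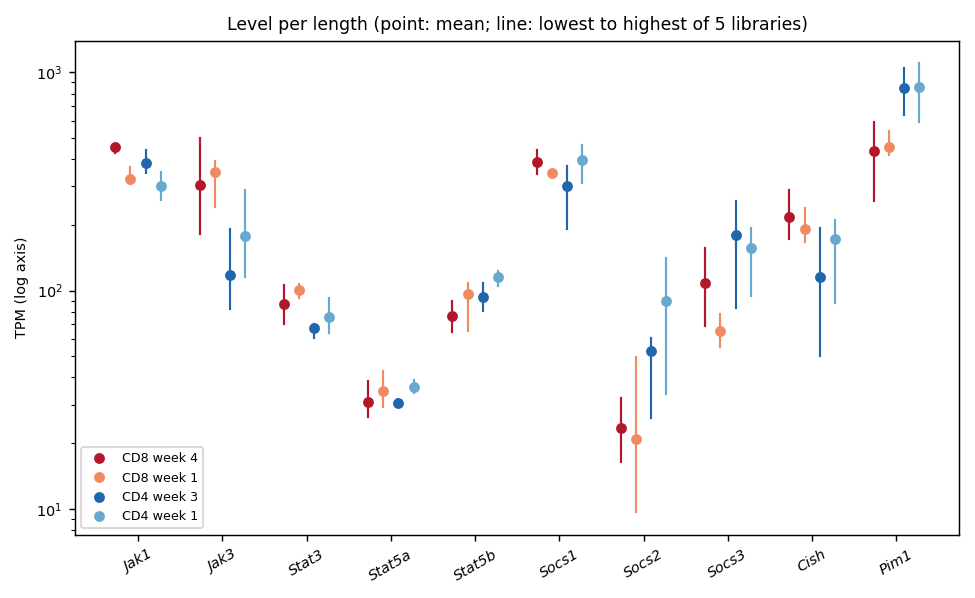
TPM of each gene on a log axis, with the mean as a point and a line from the lowest to the highest of 5 libraries, for CD8 week 4, CD8 week 1, CD4 week 3 and CD4 week 1 from left to right. Pim1 reaches the highest level, 861 ± 218 TPM in CD4 week 1, and Stat5a has the lowest mean in both CD4 groups and Socs2 in both CD8 groups.

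Ratios of TPM within a library were also taken. The ratio of Jak3 to Jak1, the kinase pair of the receptor, was 0.674 ± 0.303 for CD8 week 4 and 1.09 ± 0.244 for CD8 week 1, and 0.312 ± 0.135 for CD4 week 3 and 0.612 ± 0.297 for CD4 week 1 (SD, n = 5 each). Stat5b exceeded Stat5a in every library, by a ratio of 2.55 ± 0.67, 2.79 ± 0.452, 3.03 ± 0.304 and 3.2 ± 0.346 in the same 4 groups. Stat3 against Stat5b was 1.13 ± 0.0595 in CD8 week 4 and 1.07 ± 0.204 in CD8 week 1, and 0.728 ± 0.0521 in CD4 week 3 and 0.654 ± 0.087 in CD4 week 1, with the CD8 libraries above the CD4 libraries throughout. The ratios rest on merged exon lengths and were not tested. That of Stat5b to Stat5a also leaves out any reads that map to both genes.

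For Cish and Socs2, other genes of at least 10 CPM were ranked by the root mean square difference of their log2 CPM, each centred on its own mean over the 20 libraries, among 8556 genes. Nearest to Cish were Cd52, Gfod1 and St3gal4 (0.404 to 0.405, where Cish itself varied by 0.617). Nearest to Socs2 were Tasp1, Nfkbiz and Rexo2 (0.44 to 0.523, against 1.07). Cd52 averaged 644 CPM in CD8 week 4, 650.4 CPM in CD8 week 1, 410.2 CPM in CD4 week 3 and 547 CPM in CD4 week 1. Tasp1 averaged 24.4, 21.6, 68.7 and 79.7 CPM in these groups. The 20 points share groups and cell types, so the likeness is a description.

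The rest of the pathway was read from 5 lists with 50 genes, of which all but Il9r were tested: other kinases and STATs, other SOCS and PIM genes, regulators, receptor chains and STAT5 targets. In CD8 week 4 against week 1, 13 of the 49 were called higher and 5 lower, where 33.5% of all genes were called. Receptor chains were the list with the most calls for its size, 4 higher and 3 lower of 9. Il7r, the IL-7 receptor chain, was lower (-2.59, adjusted p = 0.000578), as were Il2ra (-1.29) and the gp130 gene Il6st (-0.69), and Il4ra was higher (0.71, adjusted p = 5.15e-05). Among STAT5 targets 4 of 14 were higher and 1 lower; the survival genes Mcl1 (0.67) and Bcl2 (0.49) and the cyclin Ccnd2 (0.54) were higher and Il2ra was the lower one. Of 6 other kinases and STATs, Tyk2 (0.40) and Stat4 (0.31) were higher, and of 6 other SOCS and PIM genes Socs5 (0.40) was higher and Pim3 (-0.45) lower. Of 15 regulators, the phosphatase CD45 (Ptprc, 0.40) and the ubiquitin ligase adaptor Asb2 (3.89) were higher and the phosphatase SHP-1 (Ptpn6, -0.62) was lower. Asb2 had 139, 171, 7.51, 15.96 and 25.4 CPM in CD8 week 4, against 11.4, 3.28, 3.28, 1.49 and 4.82 CPM in CD8 week 1, and without CD8 week 4 replicates 1 and 2 its change was 1.75 (adjusted p = 0.279). Within the lower title range only Il7r, Il2ra, Mcl1 and Bcl2 of these 14 genes kept their call, and within the upper range all but Il2ra did. Stat4 lost its call when CD8 week 1 replicate 1, 2, 4 or 5 or CD8 week 4 replicate 1, 2 or 4 was left out (0.28 to 0.32, adjusted p = 0.054 to 0.0863), and Asb2 without CD8 week 1 replicate 4 (3.65, adjusted p = 0.0504). Leaving out CD8 week 1 replicate 1 gave an Asb2 value of 4.51, and leaving out CD8 week 4 replicate 2 gave 3.28, both called. Without CD8 week 4 replicates 1 and 2 together, Il6st (-0.41, adjusted p = 0.127) and Tyk2 (0.29, adjusted p = 0.0543) also fell short.

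In CD4 week 3 against week 1, 2 of the 49 were called higher and 3 lower, where 16.5% of all genes were called. Socs5 (0.35) and the perforin gene Prf1 (0.92) were higher, and Ptpn6 (-0.75), the ubiquitin ligase gene Cblb (-0.58) and the interferon STAT gene Stat2 (-1.58) were lower. Stat2 had 68.8, 96.6, 78.6, 71.8 and 84.2 CPM in CD4 week 3, against 259, 698, 105, 63.2 and 68.3 CPM in CD4 week 1, where replicate 2 was the highest. Its change was -0.63 (adjusted p = 0.187) without CD4 week 1 replicate 2, and its call was also lost without CD4 week 3 replicate 1, 3, 4 or 5. Socs5 (0.30 to 0.37) lost its call without CD4 week 1 replicate 1, 2, 3 or 5 or CD4 week 3 replicate 1, 3, 4 or 5, Prf1 (0.80 to 0.93) without CD4 week 1 replicate 2, 3, 4 or 5 or CD4 week 3 replicate 1, 3, 4 or 5, and Cblb (-0.51 to -0.60) without CD4 week 1 replicate 1, 2 or 5 or CD4 week 3 replicate 1, 3 or 4. Ptpn6 kept its call whichever of the 10 CD4 libraries was left out. The CD8 lineage marker Cd8a had 17.5, 3.3, 1.03, 0.273 and 1.73 CPM in CD4 week 3, against 1.37, 1.88, 0.05, 0.0807 and 0.25 CPM in CD4 week 1. The groups overlapped, and it was called higher at week 3 (2.71, adjusted p = 0.0382). It was 1.13 (adjusted p = 0.281) without CD4 week 3 replicate 1, the highest library, and it also missed the threshold without CD4 week 1 replicate 3, 4 or 5 (2.41 to 2.48, adjusted p = 0.0733 to 0.0896), with limma-voom and with CD4 libraries alone. Cd8b1, the other CD8 chain, differed by -0.07 (adjusted p = 0.93), and the part of CD8 cells in the Prf1 change was not tested. Between the cell types, the culture change of 2 of the 49 genes differed, where 0.655% of all genes were called: that of Il4ra by 0.88 (adjusted p = 0.00348) and that of Il7r by -3.49 (adjusted p = 0.0135).

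Between CD8 and CD4 at week 1, 10 of the 49 were called higher in CD8 cells and 11 lower, where 38.1% of all genes were called. Jak2 (-0.61), Ptpn6 (-0.48), Il4ra (-0.76), the common gamma chain gene Il2rg (-0.43), Il6ra (-4.38, or -6.41 without CD8 week 1 replicate 3), Il6st (-0.67), Mcl1 (-0.85) and the regulatory T cell factor Foxp3 (-5.37) were lower. Stat4 (0.35), Pim2 (0.99), Pim3 (0.57), Socs7 (0.18), Pias3 (0.42), Prf1 (3.65) and the granzyme gene Gzmb (2.21) were higher. Socs7 lost its call without CD8 week 1 replicate 4 or 5 or CD4 week 1 replicate 1, 2, 3 or 4 (0.14 to 0.18, adjusted p = 0.0666 to 0.112), Il6st without CD4 week 1 replicate 1 (-0.55, adjusted p = 0.0558), Pias3 without CD8 week 1 replicate 2 (0.35, adjusted p = 0.0506) and Stat4 without CD4 week 1 replicate 4 (0.30, adjusted p = 0.0505). In the long-term cultures 12 were called higher in CD8 week 4 and 7 lower than in CD4 week 3, where 32.7% of all genes were called. Il7r (-4.85), Il2ra (-1.55), Il6st (-1.18), Pias1 (-0.32) and Foxp3 (-7.37) were lower, and Il15ra, the IL-15 receptor alpha chain (0.94), Stat4 (0.42), Socs7 (0.30), Ptprc (0.33), Asb2 (4.73), Prf1 (3.24) and Gzmb (2.43) were higher. The Asb2 difference was 2.60 (adjusted p = 0.154) with CD8 week 4 replicates 1 and 2 left out, 4.13 with replicate 2 of CD8 week 4 alone left out, and 6.35 without CD4 week 3 replicate 2, without which Gzmb differed by 3.29. Foxp3 differed by -4.67 at week 1 without CD4 week 1 replicate 4, -5.96 without CD8 week 1 replicate 3, and -6.38 in the long-term cultures without CD4 week 3 replicate 4. It was at 0.0357 to 0.161 CPM in CD8 week 4 and 0.396 to 46.4 CPM in CD4 week 3, so its fitted fold change rests on a few counts, and it missed the threshold with limma-voom (-5.56, adjusted p = 0.13).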

How the data were processed

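RNA was counted in 20 libraries of cultured, sorted mouse T cells, 5 per group. The authors deposited raw counts of reads per gene; per the submitters' processing notes they aligned to mm10 with STAR. Per the file headers, exon reads were counted by strand with featureCounts 1.6.3, and the command sets nothing for reads that map or overlap more than once, which were therefore not counted. The deposited table also lists merged exon lengths in bases, another kind of value, which served for TPM. GENCODE symbols named 49326 of 49671 genes. The table has 0 unused value columns. None of the 40 replicate pairs agreed within sampling noise (chi-square per degree of freedom 6.31 to 154). Intervals cover the spread between libraries.

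Tests used edgeR 4.0.16 (with limma 3.58.1 in R 4.3.3). Genes were filtered with filterByExpr, scaled by TMM and fitted with 4 group means over the 20 libraries. Each comparison is a quasi-likelihood F test, with p-values adjusted over 13290 genes (Benjamini-Hochberg) and calls made under 0.05. The SE was taken as |log2 fold change| over √F. There were 5 comparisons: the long-term group over week 1 in CD8 and in CD4 cells, the difference between these, and CD8 over CD4 at each stage. The steps were also run on simulated counts with known changes in CD8 week 4. Those libraries were drawn independently, so they lack the split seen among the real CD8 week 4 libraries. Likeness used log2 CPM with a prior count of 2. Summaries and figures used Python 3.11.15, numpy 2.4.6, pandas 2.3.3 and matplotlib 3.10.9. Promoter sequences are RefSeq's, on GRCm38.p6.

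The 10 genes and the 5 lists were chosen with earlier results of these data known. The text names all 10 genes in every comparison, up to 4 called genes of each list and comparison with the smallest adjusted p, and the 3 genes nearest to Cish, Socs2 and Stat5b, of which those for Stat5b are not reported here. The alternatives changed the scaling (RLE, or library totals), the tool (DESeq2 1.42.0, or limma-voom) or the filter (none, or 5 CPM in 5 libraries). Others fitted each cell type by itself, added title range as a covariate, or fitted each CD8 title range separately. The rest left out CD8 week 4 replicates 1 and 2, or each library in turn, or, added after the data were seen, the 5 libraries that sat apart.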

Additional observations from a re-analysis of the deposited data

Results flagged for a closer look

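The 10 genes were looked at in each of the 4 groups, 40 sets of 5 libraries, for a library whose gap to its nearest neighbour exceeded 0.71 of the range of its group. Chance alone gives about 1 in 20, and 5 sets were found. CD8 week 1 replicate 3 accounted for 3 of them: Jak1 at 847.1 CPM (the other 4 libraries 709 to 735 CPM), Stat5b at 115.4 CPM (the others 178 to 185 CPM) and Socs2 at 150.2 CPM (the others 28.7 to 55.4 CPM). CD4 week 3 replicate 2 had Stat3 at 181.4 CPM, where the others had 212 to 220.5 CPM. CD4 week 3 replicate 5 had Socs2 at 79.16 CPM, where the others had 173 to 198 CPM.

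The change with culture differed between the cell types for 2 receptor genes of the pathway. For Il7r, which encodes the IL-7 receptor alpha chain, the difference, CD8 minus CD4, was -3.489 on the log2 scale. Il7r averaged 12.9 ± 5.09 CPM in CD8 week 4 and 77.6 ± 43.3 CPM in CD8 week 1, and 374 ± 200.04 CPM in CD4 week 3 and 199.9 ± 114 CPM in CD4 week 1 (SD, n = 5 each). All 5 CD8 week 4 libraries lay below all 5 CD8 week 1 libraries, and the CD4 groups overlapped. For Il4ra, which encodes the IL-4 receptor alpha chain, the difference was 0.8821. Il4ra averaged 826 ± 119 CPM in CD8 week 4 and 504 ± 43.0 CPM in CD8 week 1, and 757 ± 68.9 CPM in CD4 week 3 and 852 ± 48.1 CPM in CD4 week 1. Every CD8 week 4 library lay above every CD8 week 1 library.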

How the results depend on the processing

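No paired analysis was run because the labels state no replicate number and no pairing, and the numbers used here only name the libraries. Title numbers alternate between the stages within each cell type, so neighbouring titles may or may not be the same culture at both stages. A pairing by neighbouring titles was not tested. Of 1030 refitted values of the 10 genes, 933 kept their direction and their side of the threshold. Another 28 passed the threshold newly, 36 lost their call and 33 changed sign. Of 925 refitted values of the other pathway genes named, 852 kept both and 73 lost their call. Those genes were named because they were called in the first fit. None could thus pass newly, and their counts are not comparable with those of the 10 genes. Among the alternatives run, Jak1 kept its call in every fit of CD4 and in every fit of CD8 except the lower title range, and the 5 genes called between CD8 and CD4 at week 1 kept theirs in all 17 fits. The cause of a change was not tested, except that fits on fewer libraries rest on fewer samples and that leaving out far libraries narrows the spread by construction. For CD8 week 4 against week 1, the count of the 10 genes called (2) became 1 with limma-voom, 4 without CD8 week 4 replicates 1 and 2, 0 and 7 within the lower and the upper title range, and 6 without the 5 libraries that sat apart, and 1 to 3 when each library was left out. The count of all genes (4454) was 4489 with limma-voom and 4000 without CD8 week 4 replicates 1 and 2. It was 517 and 6386 within the lower and the upper title range. It was 6317 without the 5 libraries and 3620 to 5351 with a library left out. For CD4 week 3 against week 1 the 10 genes gave 1 call, 3 without the 5 libraries and 1 to 1 with a library left out, and all genes 2189, 1150 for CD4 libraries alone, 4573 without the 5 libraries and 1090 to 3650 with a library left out (3650 without CD4 week 3 replicate 2). The difference between these changes gave 0 and 3 calls, and 87 of all genes, 334 with DESeq2, 55 with no filter, 168 without CD8 week 4 replicates 1 and 2, 1141 without the 5 libraries and 28 to 317 with a library left out (317 without CD8 week 1 replicate 3). CD8 week 4 against CD4 week 3 gave 7 of the 10 genes, 3 without CD8 week 4 replicates 1 and 2 and 3 to 8 with a library left out, and 4342 of all genes, 2585 without those replicates and 3431 to 5435 with a library left out.

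The following values changed sign, none of them called in the first fit. Without CD8 week 4 replicates 1 and 2, the CD8 change was 0.017 for Stat5a, -0.086 for Cish and 0.30 for Pim1, and the difference between the cell types was -0.15 for Jak3 and 0.24 for Pim1. Within the lower title range it was 0.19 for Jak3 and -0.24 for Socs2, and within the upper range 0.14 for Stat5a and 0.36 for Pim1, the one of these that passed the threshold. Without the 5 libraries, Pim1 changed by 0.37 in CD8 and -0.0095 in CD4 cells and Stat3 by 0.033 in CD4 cells, the difference was -0.29 for Jak3 and 0.38 for Pim1, and Stat5a at week 1 was 0.021. With a library left out, Pim1 ran from -0.14 to 0.12 in CD8 cells, from -0.037 to 0.17 in CD4 cells and from -0.20 to 0.065 for the difference. The difference ran from -0.16 to 0.011 for Stat3, -0.030 to 0.14 for Stat5a and -0.14 to 0.020 for Stat5b, and Stat5a between CD8 and CD4 from -0.12 to 0.016 at week 1 and -0.067 to 0.077 in the long-term cultures. With 5 libraries a group and depths of 13.3 to 28.3 M counts, the spread between libraries limits these comparisons.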
